A study of Mus musculus with 10 samples.

Results

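Protein kinase A (PKA) is the main kinase that answers cyclic AMP (cAMP). The 9 genes described here are those of its 4 regulatory subunits (Prkar1a, Prkar1b, Prkar2a and Prkar2b), of 2 catalytic subunits (Prkaca and Prkacb) and of 3 inhibitor peptides (Pkia, Pkib and Pkig), out of 53379 genes in the count tables. They were taken by symbol as a gene family, and the family was selected on the earlier known cKO against control difference in these read counts. The differences between genotypes below are therefore a description of these libraries and support nothing further. In the resting enzyme, a pair of regulatory subunits holds a pair of catalytic subunits inactive, and cAMP that binds the regulatory subunits frees the catalytic ones to phosphorylate serines and threonines, among them a serine of the transcription factor CREB. RI subunits are mostly soluble, while RII subunits are anchored by A-kinase anchoring proteins, and the PKI peptides block free catalytic subunits and carry them out of the nucleus. In the developing cortex PKA acts on neuronal migration and axon growth and restrains hedgehog signalling, and RIIβ, the product of Prkar2b, is known as the RII form most typical of forebrain neurons.

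RNA was sequenced from sorted cells of the Emx1+ lineage of the E16 mouse neocortex, with 400 cells and 1 embryo per library. Of 10 embryos, 7 were control MADM-7 (MADM-7 GT/TG with Emx1-Cre and, by the labels, a control Cdkn1c locus) and 3 were cKO-Cdkn1c-MADM-7, which carried in addition a Cdkn1c-flox allele from each parent, so that the whole Emx1 lineage loses Cdkn1c, the gene of the cyclin-dependent kinase inhibitor p57. All embryos shared the MADM cassettes on chromosome 7 and Emx1-Cre, and the labels give the strain background as CD1, while the breeding protocol describes a C57BL/6J and CD1 mix. Cells were sorted by the fluorescent MADM markers, with the colours pooled, and embryos were not separated by sex. Emx1-Cre is active in progenitors of the dorsal telencephalon, so radial glia, intermediate progenitors, projection neurons and other progeny were sorted together, and in such bulk libraries fewer cells of a type and less RNA per cell cannot be told apart. The comparison of cKO with control asks how gene expression differs when the lineage lacks Cdkn1c.

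Between 1738220 and 3362487 reads per library were counted on genes. Cdkn1c was covered by 32, 10 and 18 reads in cKO and by 116 to 369 reads in the controls (log2 fold change -3.66, SE 0.31), in the direction of the labels. Marker genes of projection neurons summed to 3283 to 3439 CPM (counts scaled to the TMM-normalised library total) in cKO and 4687 to 5938 CPM in controls, and those of radial glial progenitors to 1662 to 3018 CPM and 1866 to 3104 CPM, so the labelled cortical cell types were present in both genotypes. Cajal-Retzius cell markers, genes of an early-born neuron at the cortical surface, summed to 584 to 724 CPM in cKO and to 16.3 to 182 CPM in controls. Markers of endothelial and mural cells stayed at or below 20.9 CPM and those of microglia at or below 33.1 CPM in every library. Erythroid markers summed to 20.4 to 2310 CPM in cKO against 0.719 to 1822 CPM in controls, intermediate progenitor markers to 760 to 888 CPM against 499 to 1143 CPM, interneuron markers to 43.7 to 164 CPM against 64.8 to 270.0 CPM, and oligodendrocyte precursor markers to 7.88 to 28.3 CPM against 0 to 84.2 CPM. The interneuron sum includes Npy, which was called lower in cKO (0.788 to 17.4 CPM against 31.8 to 234 CPM), whereas 7 of the 8 interneuron markers tested had a log2 fold change above 0, with a median of 1.03, and Dlx2 was called higher (1.63, SE 0.41, edgeR adjusted p = 0.0354).

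The 9 genes lie on 8 chromosomes of GRCm38 and none lies on chromosome 7, which carries the MADM cassettes and Cdkn1c. Prkacb (minus strand, 146729574 to 146812990) and Pkia (plus strand, 7366669 to 7445366) share chromosome 3, far apart. Prkar2b (ENSMUSG00000002997.15) spans positions 31958476 to 32061296 of chromosome 12 on the minus strand, with 3652 bp of merged exons in 12 blocks. Prkar1a (ENSMUSG00000020612.16) spans positions 109649405 to 109669656 of chromosome 11 on the plus strand, with 4321 bp in 13 blocks. Exons of Prkar1b overlap those of Gm15672 on the same strand over 341 bp, where reads cannot be assigned to either gene and were not counted, and the exons of the other 8 overlap no annotated gene.

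Promoter windows of the Prkar2b and Prkar1a genes are shown because they are the members with the lowest log2 fold changes in cKO and because cAMP-responsive promoters are known by the CREB binding motif, the CRE. Each window is RefSeq sequence of build GRCm38.p6 and runs, on the strand of the gene, from 250 bases before a transcript start through the first 50 transcribed bases. Capitals mark the short CRE sites TGACG or CGTCA and, where they overlap, the palindromic full site TGACGTCA. The Prkar2b window is chr12:32061228-32061527 on the minus strand, 1 of 2 windows of that gene and 19 bases from its annotated start. The Prkar1a window is chr11:109650699-109650998 on the plus strand, 1 of 6 windows of that gene and 1544 bases from its annotated start.
Prkar2b: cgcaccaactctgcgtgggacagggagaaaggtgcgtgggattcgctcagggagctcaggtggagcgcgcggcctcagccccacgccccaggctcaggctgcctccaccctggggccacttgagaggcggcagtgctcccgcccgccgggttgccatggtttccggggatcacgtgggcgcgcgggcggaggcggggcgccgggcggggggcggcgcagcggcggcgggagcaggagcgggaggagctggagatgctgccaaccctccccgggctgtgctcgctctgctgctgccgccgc
Prkar1a: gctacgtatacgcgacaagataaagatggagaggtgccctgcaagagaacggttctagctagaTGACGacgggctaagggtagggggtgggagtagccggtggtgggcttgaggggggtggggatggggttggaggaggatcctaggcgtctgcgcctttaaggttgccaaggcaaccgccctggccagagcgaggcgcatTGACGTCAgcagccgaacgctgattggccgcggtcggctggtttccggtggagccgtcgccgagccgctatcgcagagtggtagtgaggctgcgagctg
The Prkar1a window shown held the full site 49 bases before the start and a separate short site further upstream. It is 1 of the 2 Prkar1a windows with a full site. The Prkar1a window nearest the annotated start, 42 bases away, held 1 short site and no full site. Neither Prkar2b window held these letters, and 75.0% of the one shown is G or C. The difference between the genes thus depends on the Prkar1a window taken. In all, 8 of the 9 genes matched 24 windows, and Pkia matched none. A full site was found in 2 of the 24, both of Prkar1a and overlapping each other, against 1.79% of all 32851 windows of the genome. A short site was found in 8 of the 24 windows (33.3%), from 6 genes, against 20.8% of all windows, both strands being searched and full sites counted in. A match is a stretch of letters and does not show binding.

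In control cells PKA mRNA was led by the regulatory subunit gene Prkar1a. By mean CPM in controls, the 8 tested members lay at percentiles 66.5 to 96.9 of the genes tested, and Pkib lay near the floor. Levels of different genes were compared as CPM per kilobase of merged exons, and neighbours in the order were compared by a two-sided exact sign-flip permutation test of the paired log2 differences (pseudocount 0.5 CPM) over the 7 controls, which cannot give a p below 0.0156. Prkar1a stood at 90.7 ± 10.4 CPM per kilobase (SD, n = 7), above Pkia, the inhibitor PKIα, at 57.5 ± 10.8, in 7 of 7 libraries (exact permutation test, adjusted p = 0.0417 over 8 pairs). Prkaca, the catalytic subunit Cα, followed at 54.4 ± 8.56 and did not differ from Pkia beyond the spread (exact permutation test, adjusted p = 0.554). Prkar2b stood at 44.1 ± 3.78, Prkar1b, the RIβ subunit gene, at 36.6 ± 13.6 and Pkig, the inhibitor PKIγ, at 32.8 ± 2.49 CPM per kilobase. None of the neighbours from Prkaca down to Pkig passed the threshold (exact permutation tests, adjusted p of 0.0625 for Prkaca over Prkar2b, 0.125 for Prkar2b over Prkar1b and 0.703 for Prkar1b over Pkig).

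A step of 1.38 on the log2 scale separated Pkig from Prkacb, the catalytic subunit Cβ, at 12.9 ± 3.50 CPM per kilobase (SD, n = 7), and Pkig was the higher in 7 of 7 controls (exact permutation test, adjusted p = 0.0417). Prkar2a, the RIIα subunit gene, lay at 9.06 ± 2.24 and did not differ from Prkacb beyond the spread (exact permutation test, adjusted p = 0.1). Pkib, the inhibitor PKIβ, came last at 0.091 ± 0.12 CPM per kilobase, below Prkar2a in 7 of 7 controls (exact permutation test, adjusted p = 0.0417), and 2 of the 7 controls had no Pkib read. With the length of the longest transcript in place of merged exons, Prkaca moved above Pkia and Prkar1b above Prkar2b, so neither of these pairs has a firm order, while Prkacb stayed above Prkar2a, by 1.16 on the log2 scale (exact permutation test, unadjusted p = 0.0156). In cKO libraries the mean levels were highest for Prkar1a, then Prkaca, then Pkia, and Prkar2b fell from rank 4 to rank 6, behind Prkar1b and Pkig.

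**Figure D1:**
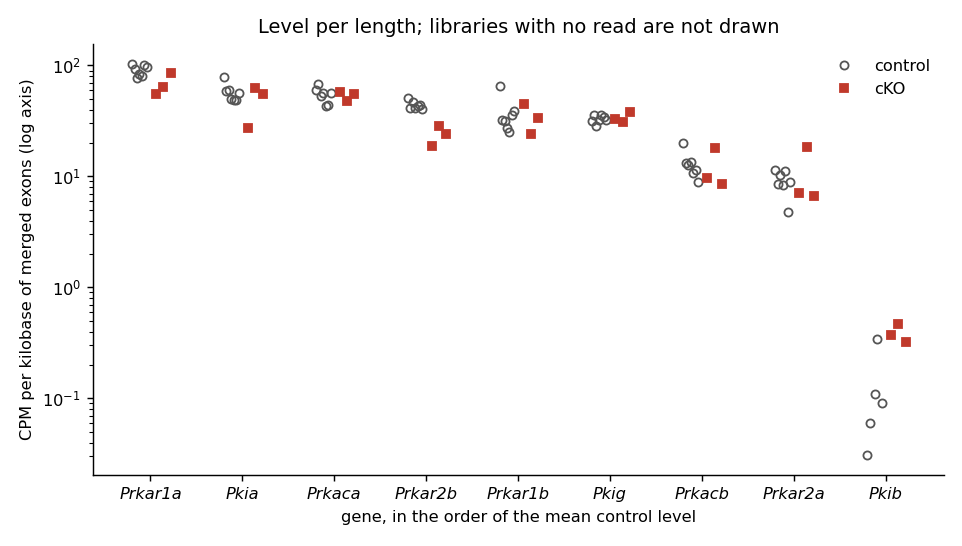
Level of each PKA gene in CPM per kilobase of merged exons on a log axis, 1 point per library (open circles, 7 controls; red squares, 3 cKO), ordered by the mean of the controls. Prkar1a is highest at a control mean of 90.7, Pkib lies far below all others at 0.091, and the Prkar2b squares lie below its circles.

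Among the regulatory subunits, Prkar2b differed between genotypes: its mean in cKO was 53.9% of that in controls. Prkar2b read 68.1, 104 and 88.2 CPM in cKO replicates 1, 2 and 3, and 146.5 CPM at the lowest, 158 at the median and 187 at the highest in the 7 controls. All cKO libraries lay below all controls, with no overlap. The log2 fold change was -0.90 (SE 0.16, 95% interval -1.24 to -0.55, adjusted p = 0.00391 by edgeR's quasi-likelihood test over 11551 genes). It was the only call among the 8 members with a mean of at least 10 reads, all of which were tested, and edgeR called 3.15% of all genes tested, 0.883% as lower in cKO and 2.27% as higher. Prkar2b was also the only tested member whose genotypes did not overlap in CPM, which held for 6.00% of all genes tested.

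The value for Prkar2b did not rest on 1 library: it stayed between -1.06 and -0.74 with each library left out in turn, and within the call each time. With the replicate number as a block it was -0.98, with an edgeR adjusted p of 0.0523, and the call was lost. The libraries fell into a set of 1 cKO and 4 controls with 5.47% to 8.64% of uniquely aligned reads outside genes and a set of 2 cKO and 3 controls with 12.8% to 16.7%. The log2 ratio of mean Prkar2b CPM, cKO over control, was -0.87 in the former set and -0.90 in the latter. The summed projection neuron markers were lower in every cKO library than in every control, with Neurod2, Neurod6 and Cux2 called lower and no marker of the list called higher, and 7 of the 7 Cajal-Retzius markers tested were called higher. The part of either in the Prkar2b value was not tested.

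Prkar1a, which encodes RIα, the subunit present in nearly every cell, read 239.8, 277 and 367 CPM in the cKO libraries and 336 to 449 CPM in controls, with a median of 399. The cKO libraries all lay under the control median and 2 of the 3 under the lowest control, while replicate 3 lay among the controls. The log2 fold change was -0.41 (SE 0.15, 95% interval -0.73 to -0.09), with an unadjusted p of 0.0144 by edgeR's quasi-likelihood test and an adjusted p of 0.168, so it did not pass. Leaving out cKO replicate 3 gave -0.60 and leaving out cKO replicate 1 gave -0.29, again without a call. Within the sets of libraries with fewer and more reads outside genes the log2 ratio of means was -0.21 and -0.43.

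Prkar1b, the RIβ gene that is mostly neural, read 172, 91.4 and 127 CPM in cKO and 94.9 to 250.4 CPM in controls, with a median of 124. The ranges overlapped, and the log2 fold change of -0.10 (SE 0.26) turned to 0.09 without control replicate 1, which held the highest value. Prkar2a, the RIIα gene found in most tissues, read 45.5, 118 and 42.4 CPM in cKO and 30.6 to 72.9 CPM in controls, with a median of 56.9. Its cKO replicate 2 lay above every library and the other cKO libraries below the control median. The log2 fold change of 0.25 (SE 0.30) turned to -0.39 without that library, so Prkar2a has no direction here.

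**Figure D2:**
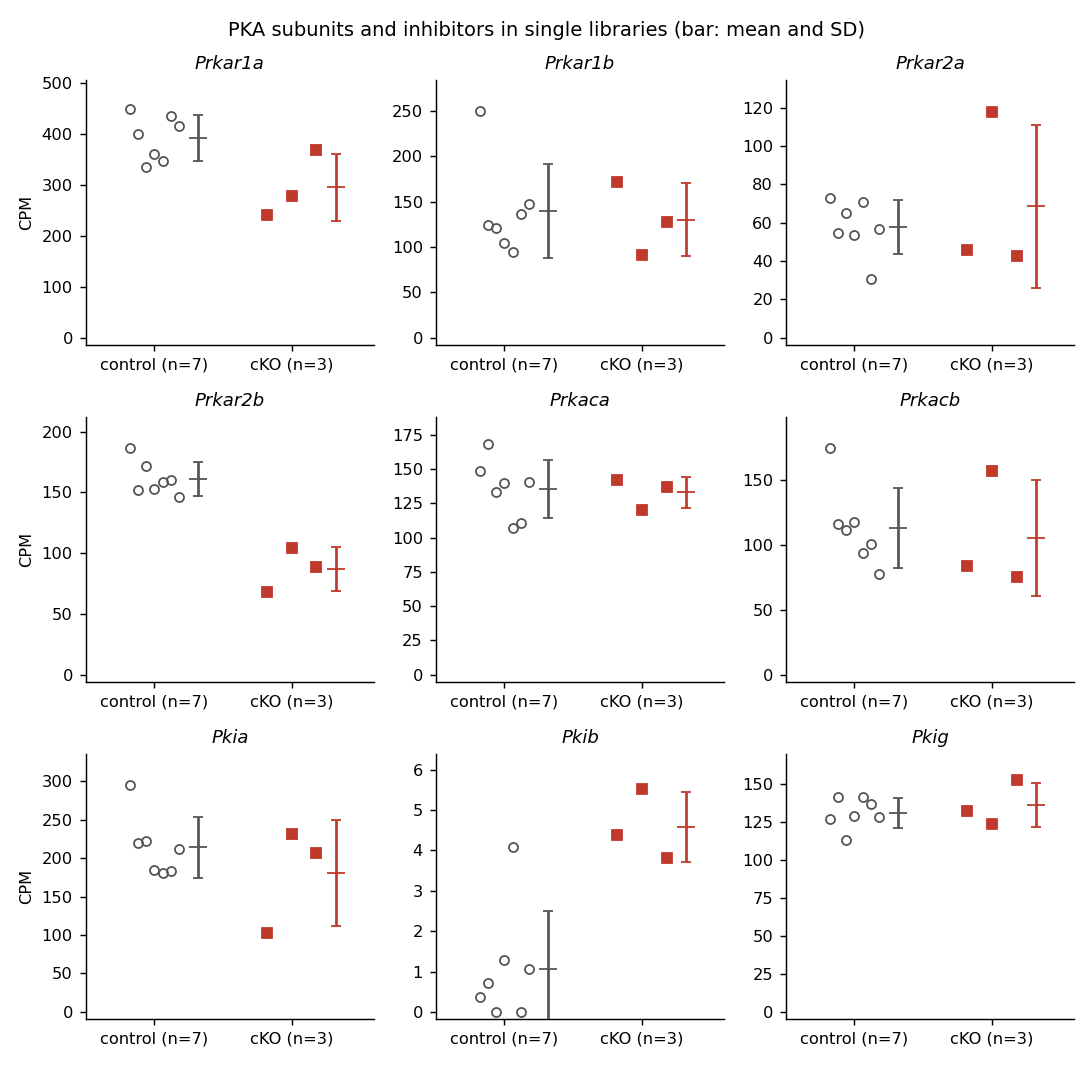
CPM of each PKA gene in each library (open circles, 7 controls; red squares, 3 cKO), with the mean and SD beside the points. Prkar2b is the panel in which the squares, at 68.1 to 104 CPM, lie clear of the circles, at 146.5 to 187 CPM.

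The make-up of regulatory subunit mRNA shifted with Prkar2b. Per kilobase, Prkar2b made up 14.8%, 21.1% and 16.2% of regulatory subunit mRNA in cKO replicates 1, 2 and 3 and 21.8% to 28.2% in controls. All cKO shares lay below all control shares, with cKO replicate 2 next to the lowest control. Prkar1a made up 49.5% ± 6.75 (mean ± SD over 3 cKO libraries) against 50.4% ± 3.48 (7 controls), Prkar1b 25.3% ± 9.30 against 19.8% ± 4.10, and Prkar2a 7.92% ± 5.00 against 5.08% ± 1.36, and in each of these the genotypes overlapped. The 4 genes together summed to 126, 135 and 149 CPM per kilobase in cKO and to 159 to 232 in controls, again with no overlap. These sums and shares rest on the same reads as the members above and were not tested.

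**Figure D3:**
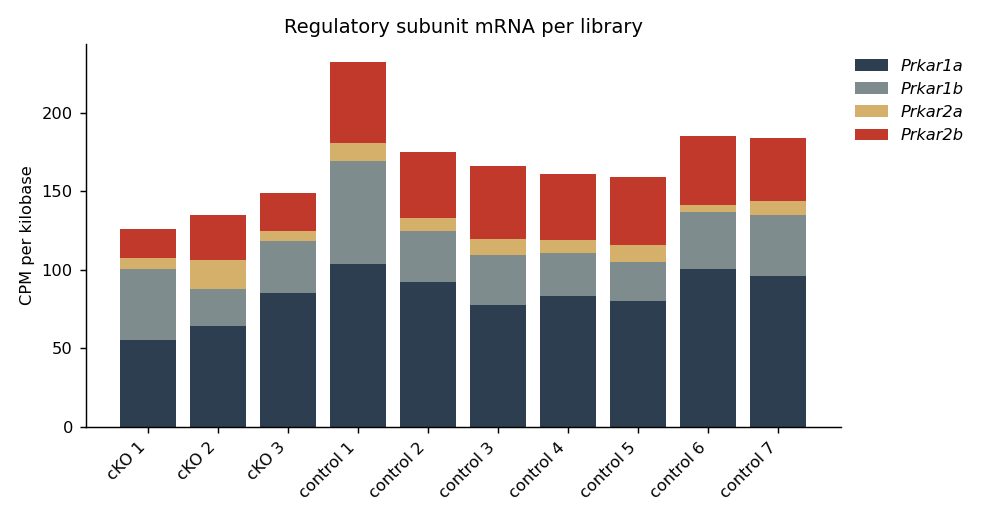
Stacked CPM per kilobase of the 4 regulatory subunit genes in each of the 10 libraries. The top segment, Prkar2b, takes 14.8% to 21.1% of the bar in cKO and 21.8% to 28.2% in controls, and control replicate 1 has the tallest bar at 232.

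The catalytic subunit genes gave no call. Prkaca read 142, 120.2 and 137 CPM in cKO and 107 to 168 CPM in controls, with a median of 140.1, and every cKO library lay inside the control range. Its log2 fold change was -0.03 (SE 0.16, 95% interval -0.37 to 0.31). Prkacb read 84.3, 157 and 75.5 CPM in cKO and 77.9 to 175 CPM in controls, with a median of 112. The cKO libraries had an SD of 44.8 CPM (n = 3) and the controls of 30.7 CPM (n = 7), and the log2 fold change was -0.11 (SE 0.24, 95% interval -0.62 to 0.41). Catalytic mRNA summed to 65.5 ± 1.61 CPM per kilobase over the 3 cKO libraries (mean ± SD) against 67.4 ± 10.5 over the 7 controls, of which Prkaca held 81.7% ± 7.57 and 80.9% ± 3.55.

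Of the inhibitors, Pkia and Pkig were tested and neither passed. Pkia, whose product blocks the catalytic subunit with high affinity, read 102, 232 and 207 CPM in cKO and 181 to 295 CPM in controls, with a median of 212. Only cKO replicate 1 lay below the controls, and without it the log2 fold change of -0.26 (SE 0.22, 95% interval -0.71 to 0.20) became 0.03. Pkig read 132, 124 and 152 CPM in cKO and 113 to 141 CPM in controls, with a median of 129. Its spread between libraries was the smallest of the members relative to its level in controls, at 9.95 CPM on a mean of 131, and the log2 fold change was 0.06 (SE 0.14, 95% interval -0.24 to 0.35).

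Pkib stood far below the other members, with a mean of 5.3 reads over the libraries, and was left out of the test by the minimum of 10. It had 13, 14 and 9 reads in cKO and 1, 2, 0, 4, 7, 0 and 3 reads in control replicates 1 to 7. As CPM the genotypes overlapped, because control replicate 5, the shallowest library, reached 4.08 CPM against 4.38, 5.52 and 3.82 CPM in cKO. Summed over libraries, that is 36 reads or 4.57 CPM of the unscaled totals in cKO (95% Poisson interval 3.20 to 6.33, counting error only) and 17 reads or 0.869 CPM in controls (0.506 to 1.39). In a fit without the filter, which called 3.62% of 26537 genes, edgeR gave Pkib a log2 fold change of 2.29 (SE 0.65, adjusted p = 0.0172), a value that rests on these few reads.

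**Figure D4:**
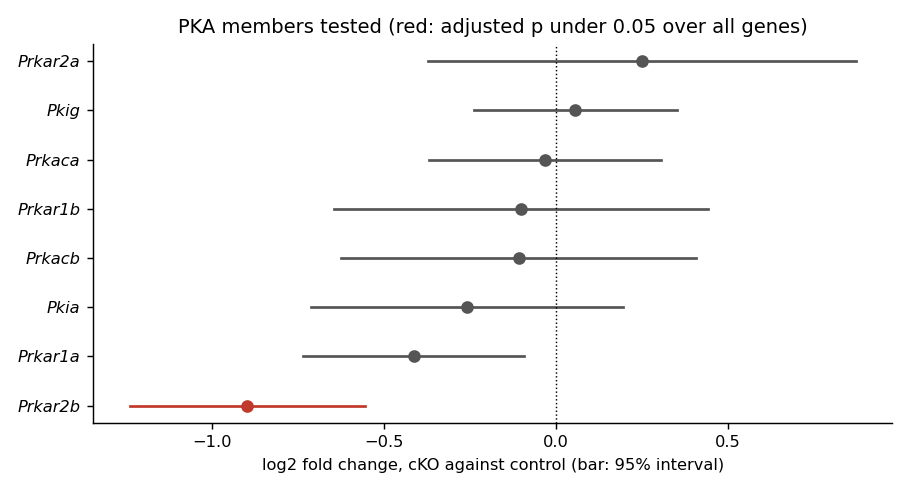
Log2 fold change of the 8 tested PKA genes, cKO against control, with 95% intervals from the edgeR fit (Pkib was under the minimum of reads). Prkar2b, the only call, lies at -0.90 with an interval of -1.24 to -0.55, the interval of Prkar1a also lies below 0, at -0.73 to -0.09, and those of the 6 other genes include 0.

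The ratios between the roles overlapped between the genotypes. Regulatory over catalytic mRNA, both per kilobase, was 1.89, 2.04 and 2.34 in the cKO libraries and 2.17 to 3.32 in controls, so that 1 cKO library lay within the control range and the others below it. Inhibitor over catalytic mRNA was 0.914, 1.42 and 1.48 in cKO and 1.17 to 1.57 in controls. The cKO replicate with the lowest inhibitor ratio was replicate 1, in which Pkia was lowest. Over the 7 tested members without a call, all 95% intervals stayed within 1 of 0 on the log2 scale, and the median log2 fold change of the 8 was -0.10, against 0.01 over all genes tested.

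The genes whose values over the 10 libraries ran closest to those of Prkar2b were Hmgcs1, an enzyme of cholesterol synthesis, Cdh2, which encodes N-cadherin, and Gfpt2, an enzyme of hexosamine synthesis. Likeness was the root mean square difference of log2 CPM after each gene was centred on its control mean, and it was 0.127, 0.147 and 0.154. Hmgcs1 had a mean of 171 CPM in cKO and 288 in controls (log2 fold change -0.76, SE 0.17, edgeR adjusted p = 0.0213), Cdh2 98.5 and 195 (-0.99, SE 0.17, adjusted p = 0.00297), and Gfpt2, which did not pass, 8.91 and 16.8 (-0.95, SE 0.31, adjusted p = 0.119). They were picked for this likeness, so their differences are a description.

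The pathway around PKA was followed in 11 lists with 112 different genes, of which 76 were tested. edgeR called 7 as higher and 1 as lower in cKO, 10.5% against 3.15% of all genes tested, and the calls fell in 2 of the lists. The other 9 lists, on the production, anchoring and reading of the cAMP signal, held none. The lists were chosen with earlier results of these data known, so the 10.5% is a description and no measure of enrichment. Of the 7 higher calls, Pde3a was tested only because of its cKO reads. The median log2 fold change of the 76 was 0.19.

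Of the cAMP phosphodiesterases, which end the signal, 2 of 10 tested were called higher and 1 lower, with a median log2 fold change of 0.08, and 1 of the 2 (Pde3a) was tested only because of its cKO reads. Pde1b, a phosphodiesterase switched on by calcium and calmodulin, read 26.3, 29.5 and 24.6 CPM in cKO and 52.1 to 82.0 CPM in controls, with a median of 69.7, and fell by 1.35 on the log2 scale (SE 0.21, edgeR adjusted p = 0.00119). Pde1a, of the same calcium-dependent class, read 44.2, 42.5 and 61.1 CPM in cKO and 12.2 to 30.0 CPM in controls, and rose by 1.17 (SE 0.25, edgeR adjusted p = 0.0157). Pde3a, a phosphodiesterase inhibited by cGMP, read 11.5, 16.9 and 8.49 CPM in cKO and 0 to 6.40 CPM in controls, with a log2 fold change of 2.32 (SE 0.46, edgeR adjusted p = 0.00721). Pde3a had 34, 43 and 20 reads in cKO and 0 to 11 in controls (median 6), so it reached the mean of 10 reads only through the cKO libraries, where it is high, and its call does not count as support. In all 3 genes, which were named because they were called, the genotypes did not overlap, which held for 6.00% of all genes tested.

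The list of cAMP-inducible CREB target genes held the other 5 calls, all higher in cKO, among 15 genes tested. Of all genes tested, 2.27% were called higher. The median log2 fold change of the list was 0.79. Egr1, an immediate early transcription factor, read 238, 173 and 164 CPM in cKO and 42.5 to 95.8 CPM in controls, with a median of 52.4 (log2 fold change 1.71, SE 0.20, edgeR adjusted p = 0.000113). Fosb, a subunit of AP-1, read 87.7, 83.5 and 52.6 CPM in cKO and 6.78 to 35.9 CPM in controls (1.95, SE 0.33). Dusp1, a phosphatase of MAP kinases, read 583, 411 and 628 CPM in cKO and 240.3 to 395 CPM in controls (0.78, SE 0.17). Gem, a small GTPase, read 30.7, 24.0 and 37.3 CPM in cKO and 8.43 to 18.7 CPM in controls (1.31, SE 0.28). The remaining call was Fos, named after its values were seen, which read 992, 456 and 770.5 CPM in cKO and 261 to 527 CPM in controls (1.08, SE 0.24). Its genotypes overlapped, as cKO replicate 2 lay below the highest controls, whereas those of the other 4 did not. Of all genes tested, 6.00% did not overlap, and the 5 genes were named because they were called in this contrast. These genes are immediate early genes that calcium and MAP kinase signals also induce.

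Of the 10 genes of this list that did not pass, Crem, the cAMP-inducible member of the CREB family, stood at 0.27 (SE 0.28), and Pde4d, which is counted among the phosphodiesterases as well, at -0.36 (SE 0.26). Summed over the list, cKO libraries held 1449 to 2572 CPM against 813 to 1448 CPM for controls. Leaving out cKO replicate 3 left 3 of the 5 calls in number, and 1 of the 2 higher phosphodiesterase calls. Marker sums move between the genotypes here as they do for Prkar2b, and their part was not tested.

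**Figure D5:**
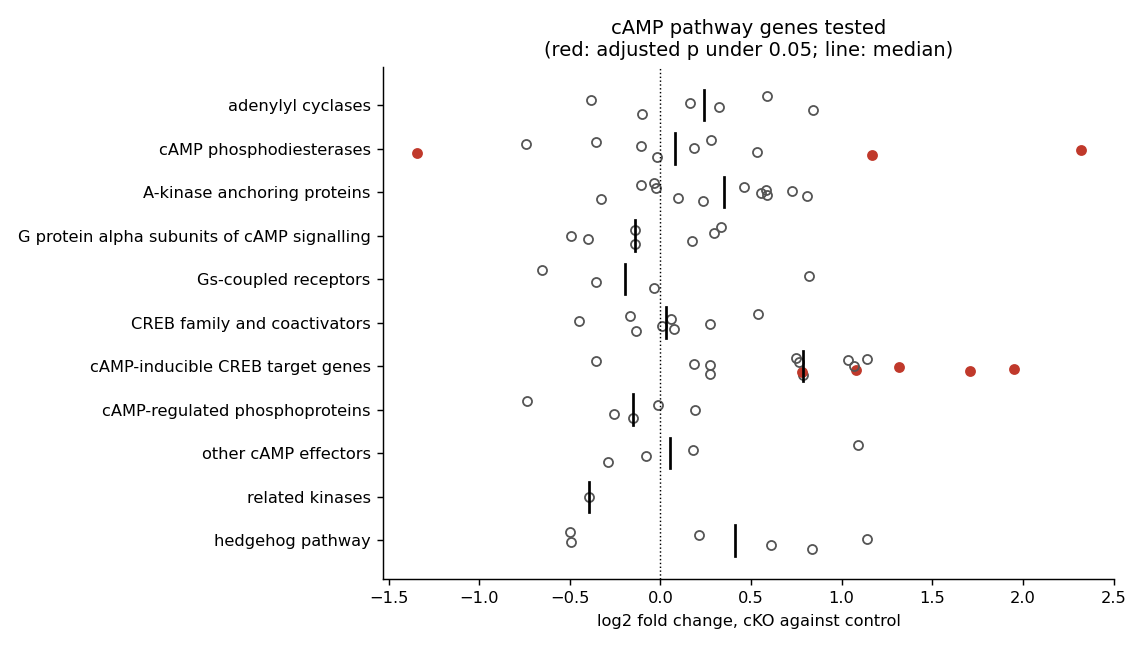
Log2 fold change, cKO against control, of each tested gene in the 11 pathway lists, with a line at each list's median. Filled red points are the 8 different genes called by edgeR, 3 among the phosphodiesterases and 5 among the cAMP-inducible CREB targets, whose median of 0.79 is the highest of the lists.

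None of the lists for the steps before PKA held a call. Of 10 adenylyl cyclases, which make cAMP, 6 were tested, with a median log2 fold change of 0.24, and the smallest p was that of Adcy9 (0.59, SE 0.40). The 7 G protein alpha subunits had a median of -0.14, led by Gnal, the olfactory and striatal stimulatory subunit (-0.49, SE 0.26). Of 18 Gs-coupled receptors only 4 had enough reads, and Gpr12, an orphan receptor with constitutive activity, had the smallest p (-0.65, SE 0.22, edgeR adjusted p = 0.126). Its 3 cKO libraries, at 32.3 to 37.1 CPM, lay below the controls, at 42.1 to 77.4 CPM.

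The partners and readers of PKA gave none either. Among 12 anchoring proteins tested of 16, with a median of 0.35, Akap6, which binds RII subunits at the nuclear envelope, had the smallest p (0.73, SE 0.27, edgeR adjusted p = 0.177). Among the 8 CREB family members and coactivators, with a median of 0.03, it was Crtc1, a coactivator of CREB (-0.45, SE 0.22). Among the 5 cAMP-regulated phosphoproteins, with a median of -0.15, it was Ppp1r1b, which encodes DARPP-32 (-0.74, SE 0.51). Among the other cAMP effectors, 4 tested of 9 and with a median of 0.05, it was Rapgef4, an exchange factor of Rap that cAMP activates directly (1.09, SE 0.41). Rapgef4 had 22, 29 and 9 reads in cKO and 4 to 15 in controls (median 10). Its mean over the controls alone was under 10, so it was tested only because of its cKO reads and does not count as support. Prkx, a relative of the catalytic subunits that PKI peptides also inhibit, was the 1 tested gene of the 3 related kinases (-0.39, SE 0.22). Of the hedgehog pathway, in which PKA is a brake, 6 of 7 genes were tested with a median of 0.41, and Ptch1, both receptor and target of the pathway, read 27.7, 38.2 and 17.4 CPM in cKO and 5.75 to 21.2 CPM in controls (1.14, SE 0.35, edgeR adjusted p = 0.093).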

How the data were processed

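Emx1-lineage cells of E16 embryos (3 cKO and 7 control, 1 embryo and 400 cells per library) were profiled with Smart-Seq2. The authors used STAR for alignment (version 2.5.0c and build GRCm38 in the submitters' processing notes) and deposited raw read counts per gene (GENCODE M16) without normalization. Reads on more than 1 gene are left out of these counts. Sense reads made up 50.3% to 50.5%, so the unstranded counts were used. Without molecular identifiers, reads are not independent molecules, and the intervals on summed reads cover counting error only.

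Symbols and exon lengths came from GENCODE M21. Of 53379 genes, 105 did not match. The 11551 genes that averaged 10 or more reads were tested with edgeR 4.0.16 in R 4.3.3 (TMM, glmQLFit with legacy = FALSE, genotype alone), with Benjamini-Hochberg adjustment over all of them at 0.05. SEs are those of the edgeR coefficients. The procedure was tested on simulated counts. Libraries of a genotype were checked for duplicates, and 24 pairs differed by 4.69 to 20.9 in chi-square per degree of freedom. Neighbouring control levels were compared by two-sided exact sign-flip tests. Promoter windows were RefSeq's (GRCm38.p6). Figures were drawn with matplotlib 3.10.9.

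The members and lists were chosen with earlier results of these data known. The genes named are all members, Cdkn1c, up to 4 called genes per pathway list or else the gene with the smallest p, the 3 genes most like each called member, and the most abundant marker of each cell type. Outside this rule, Neurod2, Cux2, Dlx2, Fos, Crem and Pde4d were named after their values were seen. The most abundant markers of the cell types in controls (median CPM) were Neurod6 (2346), Fabp7 (935), Neurog2 (258), Npy (49.4), Reln (58.3), Pdgfrb (2.27), Aif1 (1.07), Hbb-bs (5.33) and Olig1 (2.91). Alternatives were DESeq2 1.42.0, RLE size factors, other filters, robust dispersion, summed strand counts, a covariate for reads outside genes, a replicate block and each library left out. Protein sequences were not used here. Some genes that were tested are not reported here.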

Additional observations from a re-analysis of the deposited data

Results flagged for a closer look

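Within the 7 controls, 39 quantities were searched for a library set apart from the others by Dixon's criterion (the gap to the nearest library over the whole range), which chance alone meets in roughly 5% of groups, and 9 were found. Control replicate 1 held 6 of these. It read 250.4 CPM for Prkar1b, against 94.9 to 147 in the other controls, 175 CPM for Prkacb, against 77.9 to 118, and 295 CPM for Pkia, against 181 to 222. In the same library the regulatory subunits summed to 232 CPM per kilobase, against 159 to 185, Prkar1b made up 28.3% of them, against 15.6% to 21.0%, and Egr1 read 95.8 CPM, against 42.5 to 63.6. It was the highest control for 6 of the 9 PKA genes and, of all libraries, had the lowest summed markers of Cajal-Retzius cells (16.3 CPM) and intermediate progenitors (499 CPM) and the highest of interneurons (270.0 CPM) and oligodendrocyte precursors (84.2 CPM).

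Control replicate 5, with the fewest reads, stood apart for Pkib, with 4.08 CPM against 0 to 1.30, and for the share of Pkib in inhibitor mRNA per kilobase, 0.409% against 0% to 0.134%, from 7 reads. Control replicate 6 read 86.3 CPM for Ppp1r1b, against 15.1 to 30.8 in the other controls.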

How the results depend on the processing

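Prkar2b kept its direction in every alternative and its call in all but the replicate block. With the replicate number as a block its log2 fold change was -0.98 with an edgeR adjusted p of 0.0523, so that 0 members were called lower and 4 pathway genes higher. The numbers do not pair the embryos: deviations of same-numbered libraries correlated at 0.0306, -0.110 and -0.204, and all genes called fell from 364 to 213. Leaving out each library gave -1.06 to -0.74 for Prkar2b. Without the filter on low counts, 961 genes were called, 1 member (Pkib) was called higher and 13 pathway genes were. DESeq2 called 510 genes and 2 pathway genes lower. With each library left out, pathway calls ran from 4 to 9 higher (4 without cKO replicate 3) and from 1 to 2 lower (2 without cKO replicate 2). Members without a call changed sign in some settings. Prkar1b went to 0.0595 with the covariate for reads outside genes, and leaving out libraries took it from -0.37 to 0.0938, Prkar2a from -0.39 to 0.49, Prkaca from -0.0860 to 0.0257, Prkacb from -0.52 to 0.0772, Pkia from -0.50 to 0.0309 and Pkig from -0.0291 to 0.11. Prkar2a went to -0.0245 under the block. Of the control order, the longest transcript length turned Pkia over Prkaca to -0.0137 and Prkar2b over Prkar1b to -0.0872 and moved Prkar1a over Pkia to 0.92, Pkig over Prkacb to 0.87 and Prkacb over Prkar2a to 1.16. Prkar1b over Pkig ran from -0.0646 to 0.19 with controls left out. The cause of these changes was not tested.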
